A study of Homo sapiens with 42 samples.

Results

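The loops described here lie at 2 places in the human genome where a pair of ETS transcription factor genes sit side by side: FLI1 with ETS1 on chromosome 11, and ERG with ETS2 on chromosome 21. A loop was taken as a member when the start of either of its anchors fell in chr11:128200000-129200000 or in chr21:38200000-39300000, in GRCh38. The rule used positions only and no contact value. It gave 38 of the 33914 loops of the table, 25 at FLI1-ETS1 and 13 at ERG-ETS2.

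ETS factors bind DNA through a shared winged helix domain that reads a GGA core. ETS1 and FLI1 on chromosome 11, and ETS2 and ERG on chromosome 21, are held to descend from duplications of an ancestral pair of neighbours. FLI1 and ERG act in blood stem cells and in megakaryocytes, the cells that shed platelets, where FLI1 drives megakaryocyte genes. ETS1 is best known in lymphocytes and blood vessel cells, and ETS2 as a nuclear target of growth factor and protein kinase signals.

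The loops were measured by in situ Hi-C, which fixes nuclei, ligates pieces of DNA that touch and sequences the junctions, so that a count is the number of contacts between a pair of 10 kb anchors. The cells were K562, an established leukemia line with a rearranged genome, labelled wild type. All groups carry the label of PMA treatment (25 nM), a phorbol ester that activates protein kinase C and drives these cells toward a megakaryocyte-like state. They differ in its duration: 0 h, 6 h and 72 h, with 4 biological replicates each. The labels give no separate vehicle control at 6 h or 72 h, so PMA and time in culture cannot be told apart. They do not say that the replicates came from separate cultures, so p-values measure the spread between these samples, which may be technical. Hi-C measures no RNA, so neither the cell identity nor the expression of the ETS genes could be checked here.

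After summing of technical replicates and sequencing runs, the 12 libraries held from 736929 to 1472197 contacts over all loops. The counts of 72 h replicates 3 and 4 agreed within sampling noise (a chi-square per degree of freedom of 1.003). Replicates 3 and 4 were also close at 0 h (1.019) and 6 h (1.023), with chi-square test p = 0.0205 and 0.00589. All other pairs of 1 time lay from 1.056 to 1.272. The mean of 72 h replicates 3 and 4 was used as 1 sample in every mean and SD, so these have n = 4 at 0 h and 6 h and n = 3 at 72 h. The tests kept them as 2 libraries. With the 2 summed into 1, the calls among the loops described here went from 3 to 2 at 6 h against 0 h and from 23 to 21 at 72 h against 0 h. The shares of all tested loops called went from 6.41% to 6.19% and from 33.6% to 32.2%. Normalized counts are contacts per 1000000 contacts in tested loops of a library after TMM scaling. They hold the local background of the anchor pair as well as the loop. A loop is called higher or lower at an adjusted p under 0.05 in edgeR's quasi-likelihood test with Benjamini-Hochberg adjustment over 24132 tested loops, and changes are log2 fold changes with their standard errors (SE).

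In the RefSeq annotation of GRCh38.p14, ETS1 spans chr11:128458765-128587558 and FLI1 spans chr11:128685132-128813267, with 97.6 kb between them. ERG spans chr21:38367261-38661783 and ETS2 spans chr21:38805183-38824955, with 143.4 kb between them. No anchor of a member loop held an end of ETS1, FLI1 or ETS2. The lower end of ERG, where the gene stops, lay in an anchor (chr21:38360001-38370000). Anchors did fall inside the gene bodies: 3 loops touched ETS1, 2 touched FLI1 and 4 touched ERG, while none touched ETS2. The nearest anchors lay 8.8 kb from the lower end of ETS1, 6.7 kb from the upper end of FLI1 and 5.2 kb from the lower end of ETS2. The opposite ends lay farther from any anchor. These distances were 17.6 kb for the upper end of ETS1, 25.1 kb for the lower end of FLI1 and 25.0 kb for the upper end of ETS2. The upper end of ERG, where the gene starts, lay 48.2 kb from an anchor.

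The promoter table used here, from RefSeq on GRCh38.p14, matched ERG and ETS2. For each of these genes, the 250 bases before the annotated start nearest to a member anchor are shown, since they are the promoter sequence that the loops came closest to. The ERG window is chr21:38498505-38498754 on the minus strand, inside the gene body at an internal start, and lies 1.2 kb from an anchor that gained contacts (chr21:38500001-38510000). The ETS2 window is chr21:38804933-38805182 on the plus strand and lies 4.9 kb from the anchor chr21:38790001-38800000. Both are printed 5′ to 3′, and capitals mark matches, on either strand, to any of 4 short motifs. The ETS motif was searched as GGAAG and the motif of GATA factors as AGATAA. The motif of AP-1, the family of FOS and JUN, was searched as TGANTCA, and that of RUNX factors as TGTGGT. No searched motif is contained in another.
ERG: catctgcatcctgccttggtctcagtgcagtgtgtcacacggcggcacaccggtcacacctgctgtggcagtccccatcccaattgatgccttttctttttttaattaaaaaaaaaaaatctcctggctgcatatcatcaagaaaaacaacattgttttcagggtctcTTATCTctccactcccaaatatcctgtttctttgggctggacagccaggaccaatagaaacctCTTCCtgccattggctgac
ETS2: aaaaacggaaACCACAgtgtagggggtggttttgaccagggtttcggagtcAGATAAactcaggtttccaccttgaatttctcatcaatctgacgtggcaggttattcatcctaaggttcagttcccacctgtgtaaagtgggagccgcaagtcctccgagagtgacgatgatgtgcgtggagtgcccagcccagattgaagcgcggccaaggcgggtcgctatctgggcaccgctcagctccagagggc

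The ERG window held 1 match to the ETS letters and 1 to the GATA letters. The ETS2 window held 1 match to the GATA letters, 1 to the RUNX letters and none to the ETS letters. Windows at other annotated starts of these genes differed. A second ETS2 window (chr21:38805679-38805928), 5.7 kb from the same anchor, held 4 matches to the ETS letters and none to the other motifs. The ERG window chr21:38660668-38660917 held no match to any motif, and chr21:38584946-38585195 held 2 to the ETS letters. Of 34788 promoter windows of the same length, 65.1% held the ETS letters, 9.21% the GATA letters, 6.59% the AP-1 letters and 11% the RUNX letters. A match describes these letters and is not a measured binding site.

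The FLI1-ETS1 loops were longer and weaker than those of ERG-ETS2. Their median length was 470 kb against 200 kb, with ranges of 70 to 2390 kb and 40 to 780 kb. The median of the mean normalized counts was 17.4 at FLI1-ETS1 and 43.2 at ERG-ETS2, beside 18.4 over the whole table. The loops formed connected sets, with 49 distinct anchors in all and 32 of 38 loops sharing an anchor with another member. They are therefore not independent measurements of a locus. At FLI1-ETS1 the anchor just beyond the upper end of FLI1 (chr11:128830001-128840000), which holds an end of the potassium channel gene KCNJ1, took part in 5 loops. At ERG-ETS2 no anchor took part in more than 2.

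All 13 ERG-ETS2 loops and 21 of 25 FLI1-ETS1 loops had enough contacts for the test. The 4 others, loop22781, loop22785, loop22792 and loop22799, held from 66 to 115 raw contacts over the 12 libraries. Their group means lay between 5.06 and 11 normalized counts, and for every one of them the libraries of the 3 times overlapped.

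The first comparison asked whether the ETS loci changed early, at 6 h against 0 h. Of the 34 tested loops, 3 rose and none fell, 1 at FLI1-ETS1 and 2 at ERG-ETS2. At an unadjusted p under 0.05, 6 rose and 0 fell, where 20.3% of all tested loops passed in either direction. Over all tested loops 6.41% were called, 2.34% higher and 4.07% lower, against 8.82% of the members, a share near the background. The median change was 0.09 at FLI1-ETS1 and 0.00 at ERG-ETS2, beside 0.01 over all loops.

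The FLI1-ETS1 loop that rose at 6 h, loop22800, joined a site below ETS1 (chr11:128280001-128290000) to the interval between the genes (chr11:128630001-128640000). Its normalized counts were 19.6, 15.2, 16.3 and 12.5 at 0 h, 30.4, 27.1, 21.2 and 27.7 at 6 h, and 32.7, 44.2, 23.9 and 28.6 at 72 h. Every 6 h library lay above every 0 h library, and the 72 h libraries overlapped those of 6 h. The change at 6 h was 0.67 (SE 0.21, adjusted p = 0.037 by edgeR), and the call was lost without any of 0 h replicates 2, 3 and 4 and 6 h replicates 1, 2 and 4, with changes of 0.58 to 0.66 and adjusted p from 0.0661 to 0.127.

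Both ERG-ETS2 loops that rose at 6 h started from neighbouring anchors inside ERG, close to the internal start shown above. Loop32231 reached from chr21:38500001-38510000 over ETS2 to chr21:39130001-39140000, 630 kb away. Loop32231 held 29.7, 24.7, 22.6 and 28.4 normalized counts at 0 h, 37.3, 50.5, 39.6 and 42.2 at 6 h, and 33.6, 43.2, 48.9 and 39.3 at 72 h. It rose by 6 h and stood at about that level at 72 h, with no overlap between 0 h and either later time. The change was 0.64 at 6 h (SE 0.17, adjusted p = 0.012 by edgeR) and 0.58 at 72 h against 0 h (SE 0.17, adjusted p = 0.0045), and 72 h differed from 6 h by -0.06 (SE 0.16, adjusted p = 0.83). Without 6 h replicate 2 the 6 h change was 0.53 with an adjusted p of 0.103, and with the correction for loop length the adjusted p was 0.069 at 6 h and 0.056 at 72 h.

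Loop32232 joined the next anchor inside ERG (chr21:38510001-38520000) to the interval between ERG and ETS2 (chr21:38710001-38720000), 200 kb away. It held 27.5, 23.7, 17.6 and 22.7 normalized counts at 0 h, 33.3, 31.8, 36.8 and 42.2 at 6 h, and 54.0, 73.3, 51.0 and 50.0 at 72 h. The 3 times did not overlap, and contacts were higher at each later time. The change was 0.56 at 6 h (SE 0.19, adjusted p = 0.049 by edgeR), 1.20 at 72 h against 0 h (SE 0.16, adjusted p = 1e-09) and 0.64 at 72 h against 6 h (SE 0.16, adjusted p = 0.0012). The 6 h call sat at the threshold and was lost in each of the 12 fits without 1 library, with adjusted p from 0.0509 to 0.165, and with 72 h replicates 3 and 4 summed (0.0561). The call at 72 h against 0 h held in all of them.

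**Figure D1:**
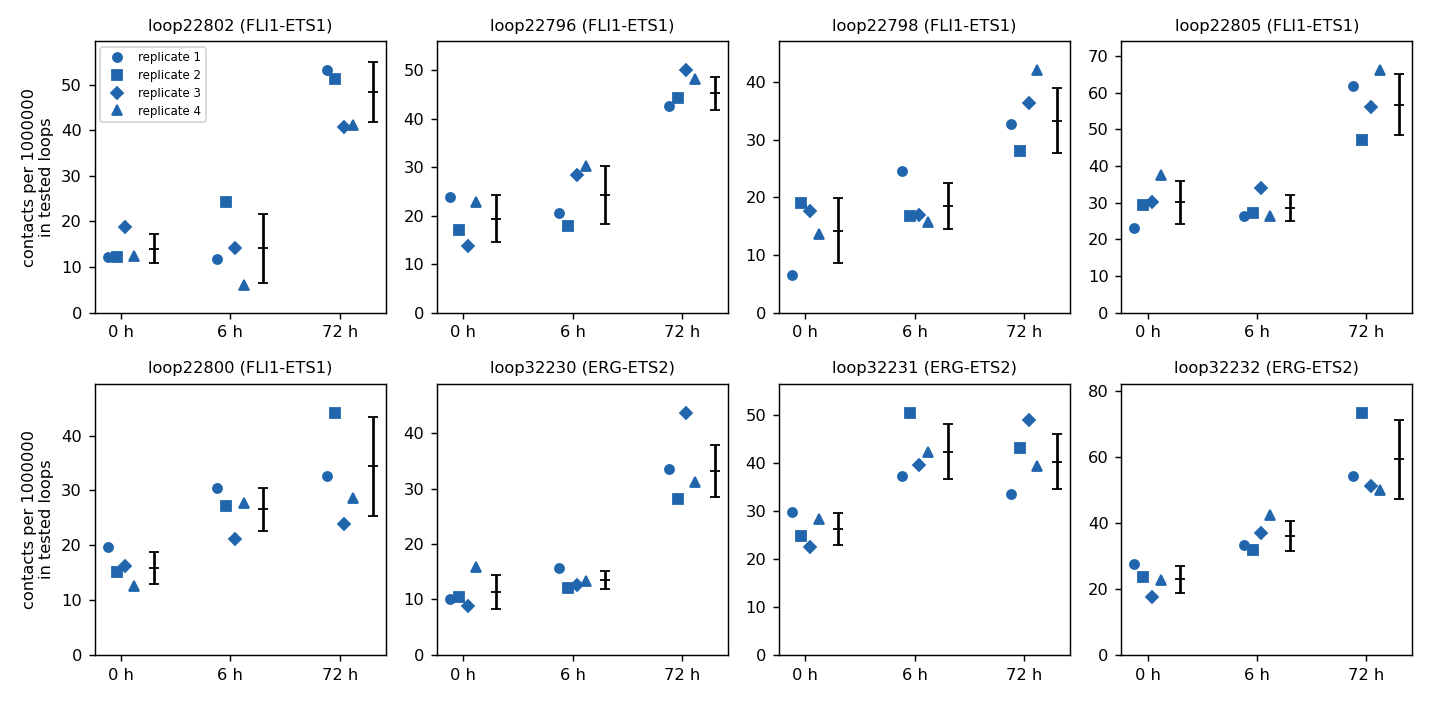
Normalized counts (contacts per 1000000 in tested loops, vertical axis) of 8 loops at 0 h, 6 h and 72 h (horizontal axis); each point is 1 library, its shape gives the replicate, and the bar beside each group is the mean ± SD (n = 4 at 0 h and 6 h, n = 3 at 72 h with replicates 3 and 4 averaged first). Loop22802 and loop32230 stay near their 0 h level at 6 h and lie above it at 72 h, loop32231 is already higher at 6 h, and loop32232 is higher at each later time.

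The second comparison asked what the loci looked like in the differentiated state, at 72 h against 0 h. Of the 34 tested loops, 23 rose and none fell, 16 of 21 at FLI1-ETS1 (76.2%) and 7 of 13 at ERG-ETS2 (53.8%). At an unadjusted p under 0.05, 27 rose and 0 fell, where 43.4% of all tested loops passed. Over all tested loops 33.6% were called, with 16.7% higher and 16.9% lower, so the members' share of risen loops was above the background at both loci. The median change was 0.68 at FLI1-ETS1 and 0.38 at ERG-ETS2, beside 0.01 over all loops. In 19 of the 34 loops every 72 h library lay above every 0 h library, which held for 14.2% of all tested loops. These are counts over loops that share anchors, and no test was made over the members as a list.

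The surroundings were measured in the same fit. Over the rest of chromosome 11 the median change at 72 h was -0.05 and 16.4% of loops rose, and over the rest of chromosome 21 it was 0.01 and 17.8%. Within 2 Mb of the FLI1-ETS1 window, 17 of 40 tested loops rose and 1 fell, with a median of 0.29. Within 2 Mb of the ERG-ETS2 window, 11 of 39 rose and 3 fell, with a median of 0.12. Values of the neighbours thus lay between those of the ETS loci and of the chromosomes, and the differences were not tested.

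Loop length moved with the change over the whole table, with a median change at 72 h of -0.18 for loops up to 100 kb and 0.11 for those of 400 to 800 kb. For loops of 400 to 800 kb, the median was 0.81 over 8 FLI1-ETS1 loops and 0.38 over 4 ERG-ETS2 loops. For loops of 100 to 200 kb, the medians were 1.29 over 2 FLI1-ETS1 loops, 0.34 over 5 ERG-ETS2 loops and -0.09 over the table. With an offset for length in the fit, 19 members were called at 72 h and 29.6% of all loops, and the members called were all higher. The offset ended the calls of 3 long FLI1-ETS1 loops, loop22793 (0.39, adjusted p = 0.221 by edgeR), loop22797 (0.44, adjusted p = 0.167) and loop22809 (0.41, adjusted p = 0.252), and of loop32231 and loop32235 at ERG-ETS2 (0.41 and 0.35, adjusted p = 0.0558 and 0.0694).

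**Figure D2:**
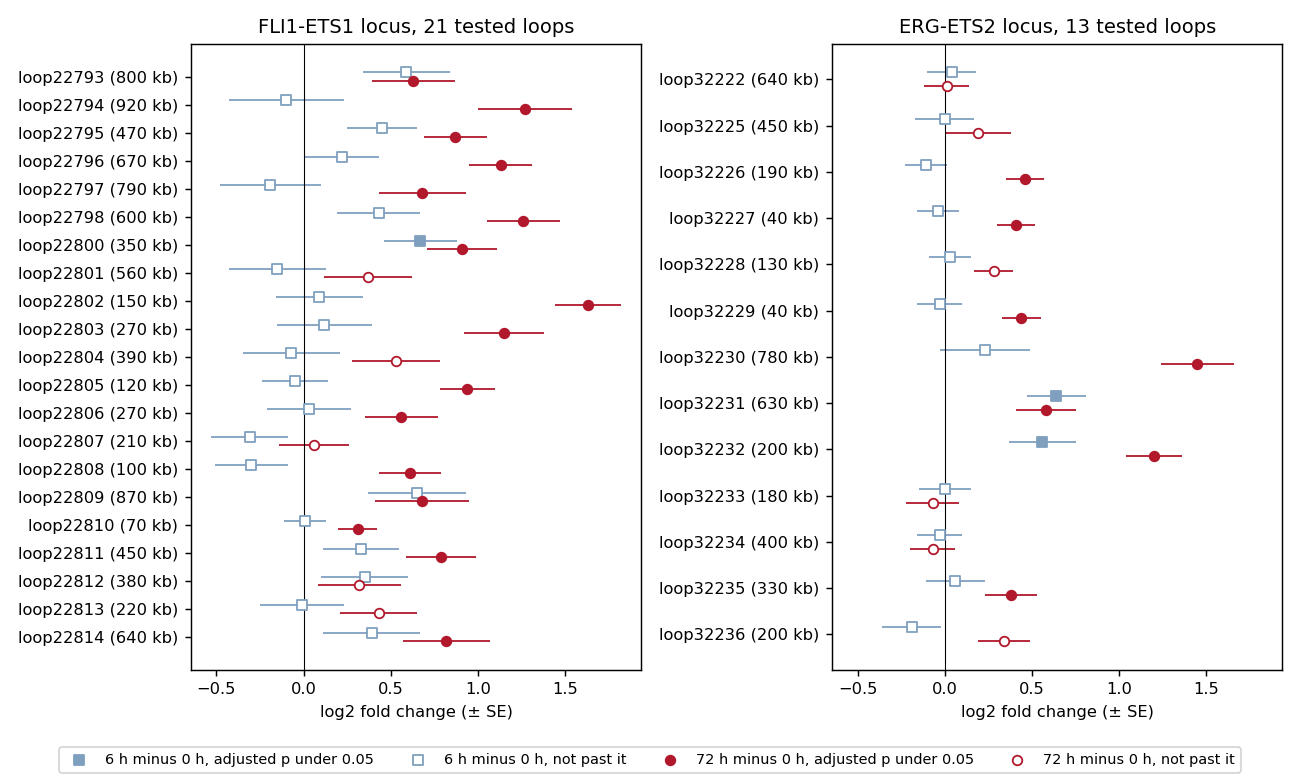
Log2 fold change (horizontal axis, ± SE) of each of the 34 tested loops (vertical axis, in order of position, with the length in kb) at 6 h (squares) and 72 h (circles) against 0 h; filled symbols have an adjusted p under 0.05. At 72 h all 21 FLI1-ETS1 loops and 11 of 13 ERG-ETS2 loops have values above 0, while at 6 h 20 of the 34 do.

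At FLI1-ETS1 the largest rise was in a loop next to ETS1. Loop22802 joined chr11:128290001-128300000 to chr11:128440001-128450000, 150 kb away, and its upper anchor is the one that stops 8.8 kb short of the lower end of ETS1. Its normalized counts were 12.3, 12.3, 18.8 and 12.5 at 0 h, 11.8, 24.3, 14.2 and 6.03 at 6 h, and 53.1, 51.2, 40.6 and 41.1 at 72 h. Every 72 h library exceeded every other library, while 6 h and 0 h overlapped. The change at 72 h was 1.63 (SE 0.19, adjusted p = 3.4e-12 by edgeR), and at 6 h it was 0.09 (SE 0.25, adjusted p = 0.89). Within replicates 1 and 2 the 72 h change was 1.92 and within replicates 3 and 4 it was 1.28.

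All 3 loops with an anchor inside ETS1 rose at 72 h, with a median change of 0.94, where 16.7% of all tested loops rose. The rise was not limited to loops that touch a gene. Of 13 tested FLI1-ETS1 loops with both anchors outside the genes and their interval, 9 rose (69.2%), with a median of 0.68. The difference between these groups was not tested. Loop22803 shared its lower anchor with loop22802 and ended inside ETS1 (chr11:128560001-128570000). It held 5.07, 14.2, 17.6 and 12.5 normalized counts at 0 h, 7.84, 21.5, 9.91 and 9.65 at 6 h, and 36.3, 22.1, 23.9 and 28.6 at 72 h, so that 72 h lay above both earlier times. The change was 1.15 (SE 0.23, adjusted p = 1.7e-05 by edgeR), with 1.52 within replicates 1 and 2 and 0.74 within replicates 3 and 4, where the adjusted p was 0.0746.

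Loop22805 ran from inside ETS1 (chr11:128500001-128510000) to the interval between the genes (chr11:128620001-128630000), 120 kb away. Its normalized counts were 23.2, 29.4, 30.1 and 37.5 at 0 h, 26.5, 27.1, 34.0 and 26.5 at 6 h, and 61.9, 47.2, 56.2 and 66.1 at 72 h. The 72 h libraries stood apart from both earlier times, which overlapped. The change was 0.94 (SE 0.16, adjusted p = 3.8e-07 by edgeR). Loop22806 ran from inside ETS1 (chr11:128550001-128560000) past FLI1 to chr11:128820001-128830000, and rose from 16.3 ± 3.2 to 26.3 ± 2.6 (SD), with overlapping libraries.

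Both loops with an anchor inside FLI1 rose at 72 h as well, beside 16.7% of all tested loops and 69.2% of the FLI1-ETS1 loops with both anchors outside. Loop22798 reached from chr11:128170001-128180000, far below ETS1, into FLI1 (chr11:128770001-128780000) over 600 kb. Its normalized counts were 6.52, 19.0, 17.6 and 13.6 at 0 h, 24.5, 16.8, 17.0 and 15.7 at 6 h, and 32.7, 28.1, 36.4 and 42.0 at 72 h. No 72 h library fell among those of 0 h or 6 h, and the change was 1.26 (SE 0.21, adjusted p = 2.9e-07 by edgeR). Loop22808 joined the interval between the genes (chr11:128650001-128660000) to FLI1 (chr11:128750001-128760000) over 100 kb. It held 20.3, 22.8, 22.6 and 30.7 normalized counts at 0 h, 15.7, 19.6, 15.6 and 24.1 at 6 h, and 42.5, 38.1, 23.9 and 42.0 at 72 h. Its 72 h replicate 3 fell among the earlier libraries, and the change was 0.61 (SE 0.18, adjusted p = 0.0051), with 0.85 within replicates 1 and 2 and 0.30 within replicates 3 and 4, where the adjusted p was 0.443.

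**Figure D3:**
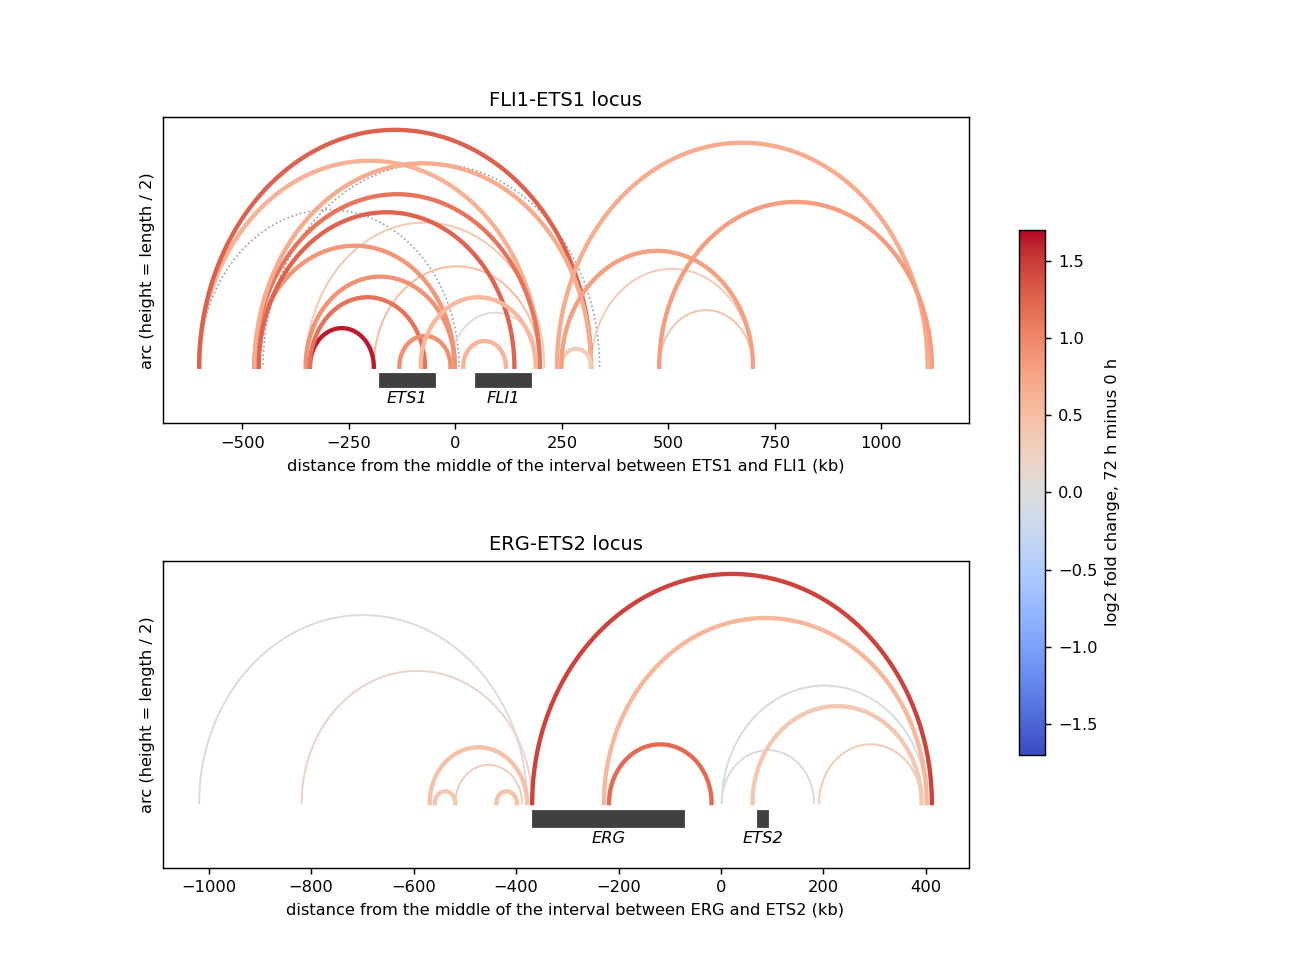
Loops of each locus as arcs over the genes (boxes), placed by distance in kb from the middle of the interval between the genes; colour gives the log2 fold change at 72 h against 0 h, thick arcs have an adjusted p under 0.05, thin arcs do not, and dotted grey arcs were not tested. Loop22781 and loop22785, of 2390 and 2380 kb, are left out. Red arcs cover both genes at FLI1-ETS1, and at ERG-ETS2 the deepest red is in arcs that start in ERG.

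A further group of loops spanned the whole pair, from sites below ETS1 to sites beyond FLI1. Loop22796 (670 kb), from chr11:128160001-128170000 to the KCNJ1 anchor, held 23.9, 17.1, 13.8 and 22.7 normalized counts at 0 h, 20.6, 17.8, 28.3 and 30.2 at 6 h, and 42.5, 44.2, 49.9 and 48.2 at 72 h. The 72 h libraries again stood apart, with a change of 1.13 (SE 0.18, adjusted p = 7.5e-08 by edgeR). Loop22794 (920 kb), the longest tested member, rose from 6.43 ± 1.0 to 17.2 ± 2.1 (SD), a change of 1.27 (SE 0.27, adjusted p = 8.1e-05), without overlap. Loop22793 and loop22797, also across the pair, rose by 0.63 and 0.68, calls that ended with the length offset as given above. Loop22795 stopped between the genes and rose from 21.6 ± 3.2 to 39.2 ± 4.3, a change of 0.87 (SE 0.18, adjusted p = 4.9e-05). Not every loop that crossed FLI1 passed the test: loop22801, loop22804 and loop22807, which end at or next to the KCNJ1 anchor, had changes of 0.37, 0.53 and 0.06 with adjusted p of 0.26, 0.084 and 0.84.

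Beyond FLI1, the loops touched neither ETS gene. Loop22810 was the strongest loop of the locus, with 86.3 ± 4.8 normalized counts at 0 h, 87.3 ± 12 at 6 h and 107 ± 6.1 at 72 h (SD). Its change was among the smallest called, 0.31 (SE 0.11, adjusted p = 0.024 by edgeR). Loop22811, from the same lower anchor, rose by 0.79 (SE 0.20, adjusted p = 0.00096), loop22814 by 0.82 (SE 0.25, adjusted p = 0.0073) and loop22809 by 0.68 (SE 0.27, adjusted p = 0.042), a call that also ended with the length offset. Loop22812 and loop22813 had changes of 0.32 and 0.43 and did not pass the test.

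At ERG-ETS2 the rise was uneven. The 4 loops that touched ERG had a median change of 0.89 at 72 h, and 3 of them rose. The 6 loops with both anchors outside the pair had a median of 0.37, with 3 risen. Over all tested loops 16.7% rose. These groups also differed in length, with medians of 540 kb and 160 kb, and the difference between their changes was not tested. The remaining loops, loop32233, loop32234 and loop32235, are given below. Loop32230 joined the anchor at the lower end of ERG to chr21:39140001-39150000, 780 kb away beyond ETS2. Its normalized counts were 10.1, 10.4, 8.78 and 15.9 at 0 h, 15.7, 12.1, 12.7 and 13.3 at 6 h, and 33.6, 28.1, 43.7 and 31.2 at 72 h. Every 72 h library was higher than every earlier one, and 0 h and 6 h overlapped. The change was 1.45 (SE 0.21, adjusted p = 8.4e-09), with 1.43 within replicates 1 and 2 and 1.41 within replicates 3 and 4, and 1.21 with the correction for length (edgeR).

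The same ERG anchor took part in another loop that did not pass the test. Loop32225 led away from ETS2 to the potassium channel gene KCNJ6 (chr21:37910001-37920000) and held 23.6 ± 3.7 normalized counts at 0 h and 27.7 ± 6.5 at 72 h (SD). Its change was 0.19 (SE 0.19, adjusted p = 0.48 by edgeR), with overlapping libraries. The difference between the changes of loop32225 and loop32230 was not tested.

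Outside ERG, 3 strong loops in the stretch below the gene rose by smaller amounts. The 3 strongest loops of the locus, loop32226, loop32227 and loop32228, had the same mean over all libraries to 3 digits. Loop32227 (40 kb) held 94.2, 87.3, 109 and 85.3 normalized counts at 0 h, 92.2, 92.5, 102 and 78.4 at 6 h, and 126, 139, 113 and 122 at 72 h. All 72 h libraries lay above the earlier ones, and the change was 0.41 (SE 0.11, adjusted p = 0.0017 by edgeR). Loop32226 (190 kb) rose by 0.46 (SE 0.11, adjusted p = 0.00053) and loop32229 (40 kb), with an anchor inside the potassium channel gene KCNJ15, by 0.44 (SE 0.11, adjusted p = 0.0012). Loop32228, which shares an anchor with loop32227, had a change of 0.28 with an adjusted p of 0.051. Not all of this stretch rose. Loop32222 (640 kb), which shares an anchor with loop32226, held 63.3 ± 7.3 normalized counts at 0 h and 64.3 ± 5.4 at 72 h (SD). Its change was 0.01 (SE 0.13, adjusted p = 0.98 by edgeR). Within replicates 3 and 4 alone, loop32226, loop32227 and loop32229 had changes of 0.26, 0.28 and 0.28 and were not called (adjusted p from 0.172 to 0.195), against 0.60, 0.51 and 0.57 within replicates 1 and 2, where they were.

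Of the 4 loops that cross ETS2 or lie beyond it and do not start in ERG, 1 rose at 72 h against 0 h. Over all tested loops 16.7% rose. Loop32230 and loop32231, given above, also cross ETS2, from anchors in ERG, and both rose (1.45 and 0.58). The loop whose anchor lies nearest to ETS2, loop32235 (330 kb, from chr21:38790001-38800000), held 42.0, 45.6, 33.9 and 28.4 normalized counts at 0 h, 28.4, 45.8, 38.2 and 48.3 at 6 h, and 51.3, 48.2, 49.9 and 51.8 at 72 h. The 72 h libraries lay just above the highest 0 h library, and the change was 0.38 (SE 0.15, adjusted p = 0.045 by edgeR). Loop32233 and loop32234, which start between the genes and cross ETS2, had changes of -0.07 each (SE 0.15 and 0.13, adjusted p = 0.77 and 0.72) and were the only tested members with a value below 0. Loop32236, beyond ETS2, had a change of 0.34 against 0 h with an adjusted p of 0.075.

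Some of the calls at 72 h against 0 h lay near the threshold and did not hold without 1 or another library, mostly with changes about as large. Leaving out 1 library at a time lost loop22814 without 0 h replicate 3 (0.61, adjusted p = 0.0606) and loop22793 without 0 h replicate 1 or 2 or 72 h replicate 1 or 4 (0.52 to 0.63, adjusted p from 0.054 to 0.142). It lost loop22797 without 0 h replicate 1, 2 or 3 or 72 h replicate 1 or 2 (0.58 to 0.63, adjusted p from 0.0606 to 0.0815), and loop22806 without 0 h replicate 2, 3 or 4 or 72 h replicate 2 or 3 (0.38 to 0.52, adjusted p from 0.0628 to 0.205). It lost loop22809 without 0 h replicate 2, 3 or 4 or 72 h replicate 1, 3 or 4 (0.58 to 0.69, adjusted p from 0.0617 to 0.134), and loop22810 without 0 h replicate 1 or 3 or 72 h replicate 1, 3 or 4 (0.27 to 0.30, adjusted p from 0.0541 to 0.0948). Loop32235 was lost in 11 of 12 such fits, all but that without 0 h replicate 2, with changes of 0.27 to 0.43 and adjusted p from 0.051 to 0.201 by edgeR. With 72 h replicates 3 and 4 summed, loop22809 (0.67, adjusted p = 0.0507) and loop32235 (0.36, adjusted p = 0.0614) were not called. The other 16 calls held without each library.

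The third comparison, 72 h against 6 h, asked when the change came. Of the 34 tested loops, 14 rose and none fell, 8 at FLI1-ETS1 and 6 at ERG-ETS2, where 20.5% of all tested loops were called, 10.7% higher and 9.81% lower. At an unadjusted p under 0.05, 21 rose and 0 fell, where 33.3% of all tested loops passed. The median change was 0.46 over the members and 0.00 over all loops. Of these 14 loops, 13 were also higher at 72 h than at 0 h. The largest changes were again those of loop22802 (1.55, SE 0.20, adjusted p = 4.8e-10 by edgeR), loop22794 (1.36, SE 0.28, adjusted p = 0.00015) and loop32230 (1.21, SE 0.21, adjusted p = 4.9e-06). The comparisons share libraries, so these values describe 1 set of 72 h measurements against each earlier time.

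All 5 loops with an anchor inside ETS1 or FLI1 were above their 6 h value at 72 h, by 1.03, 1.00 and 0.54 for ETS1 and by 0.83 and 0.91 for FLI1. So were 12 of the 13 tested FLI1-ETS1 loops with both anchors outside, of which 4 passed the test, beside 10.7% of all tested loops. Of the 5 loops inside the genes, only loop22806 (0.54, adjusted p = 0.061 by edgeR) did not pass the test. It passed without 72 h replicate 4, with 0.72 and an adjusted p of 0.0145. Loop32236, the only loop called here and not at 72 h against 0 h, had a change of 0.52 (SE 0.16, adjusted p = 0.013), and lost the call without 6 h replicate 4 (0.41, adjusted p = 0.0812) or 72 h replicate 2 (0.45, adjusted p = 0.0601). Loop22797 had a change of 0.87 (adjusted p = 0.01) and lost its call without 6 h replicate 1 (0.66, adjusted p = 0.093) or 3 (0.71, adjusted p = 0.0532). Loop22795 (0.42, adjusted p = 0.073) did not pass the test, but passed without 6 h replicate 2 (0.54, adjusted p = 0.0398). Loop22810 (0.30) lay at the threshold without passing it, and passed without 6 h replicate 4 (0.38, adjusted p = 0.0252). It also passed with the length offset, the replicate block and total count scaling. A term for replicates 1 and 2 against 3 and 4 gave a pass too (adjusted p from 0.0353 to 0.0453 over these settings by edgeR).

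Summed over all its loops, FLI1-ETS1 held 389.6, 418.7, 386.4 and 465.0 normalized counts at 0 h, 442.2, 485.0, 420.3 and 481.4 at 6 h, and 724.5, 666.6, 668.7 and 723.9 at 72 h. ERG-ETS2 held 707.6, 683.5, 682.4 and 747.0 at 0 h, 707.9, 748.6, 735.9 and 700.9 at 6 h, and 905.0, 978.8, 906.8 and 873.9 at 72 h. At both loci the 0 h and 6 h sums overlapped, and every 72 h sum lay above them. Loops with many contacts weigh most in such a sum, which is given as a description with no test.

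**Figure D4:**
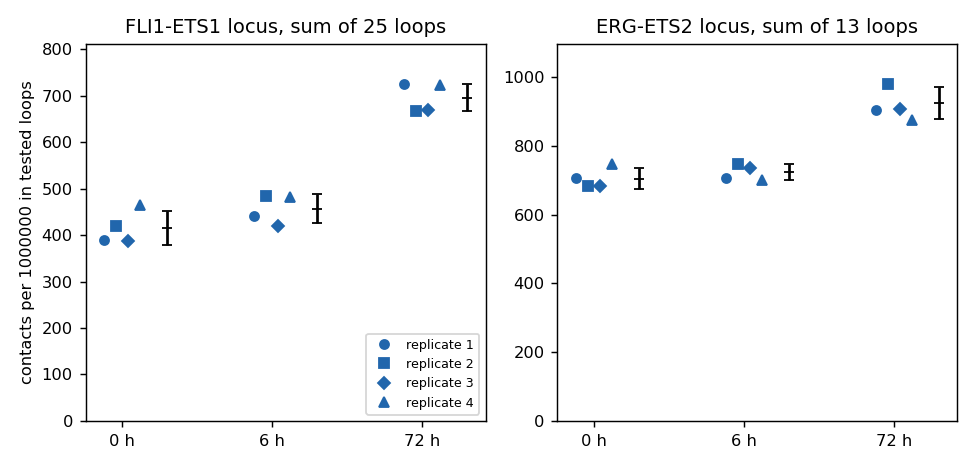
Normalized counts summed over the 25 loops of FLI1-ETS1 and the 13 loops of ERG-ETS2 (vertical axis, contacts per 1000000 in tested loops) at 0 h, 6 h and 72 h; points are libraries, shapes are replicates, and bars are the mean ± SD (n = 4, 4 and 3). FLI1-ETS1 goes from 415 ± 36 at 0 h to 696 ± 29 at 72 h, and ERG-ETS2 from 705 ± 30 to 925 ± 47.

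Replicates 1 and 2 had 3 technical replicates each, and replicates 3 and 4 had 2, each sequenced in 2 runs. The 2 pairs were also fitted apart, though no label names them as batches. At 72 h against 0 h, 16 members were called within replicates 1 and 2 and 11 within replicates 3 and 4, all higher, where 19.7% and 17.1% of all loops were called in the same fits. Each of the 23 calls had a positive value in both. At 72 h against 6 h the counts were 11 and 9, beside 9.53% and 7.27% of all loops, and at 6 h against 0 h none was called in either, with 5 and 4 at an unadjusted p under 0.05 (edgeR), beside 2.09% and 0.916% of all loops called. In a test of the difference between these pairs of replicates, no member was called at 6 h or 72 h by edgeR, with 4 and 0 members at an unadjusted p under 0.05, and over all tested loops 0 and 1 were called.

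In the authors' deposited table, which assigns each loop to a class, 6 of 25 FLI1-ETS1 loops (24.0%) and 2 of 13 ERG-ETS2 loops (15.4%) were gained and none was lost, where 2.95% of the whole table was gained and 1.48% lost. The gained loops in the authors' deposited table were loop22795, loop22796, loop22798, loop22800, loop22802, loop22805, loop32230 and loop32232. For loop22802 the authors' deposited table gives a log2 fold change of 0.00 at 6 h and 1.68 at 72 h, and for loop32230 it gives 0.02 and 1.48. Its 6 h values for loop22800, loop32231 and loop32232 are 0.12, 0.41 and 0.20, smaller than the 0.67, 0.64 and 0.56 found here. DESeq2 run here on the deposited counts gave 0.73, 0.68 and 0.61. The deposited changes may therefore be on another scale, which was not checked, and do not show that the authors measured smaller early changes. Loop32231 and the other loops called here at 72 h but not gained are classed there as static. The class is not the same as a lack of a small adjusted p. Among these static loops, loop22808, loop32226, loop32227 and loop32229 have deposited adjusted p of 0.02, 0.003, 0.014 and 0.014 (the submitters name DESeq2). The others have a deposited value above 0.05 or none.

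The other genes of the ETS family were taken as loops with an end of the gene in an anchor. They gave 18 loops at 10 of 23 genes, and of the 16 tested at 72 h against 0 h none rose and 3 fell (18.8%), beside 16.7% higher and 16.9% lower over all tested loops, with a median change of -0.15. Loop33689 at ELF4, an ETS activator in lymphoid cells, fell from 32.2 ± 6.9 to 21 ± 2.3 normalized counts (-0.52, adjusted p = 0.021 by edgeR). The other 2 calls, loop21810 and loop21811 at SPI1, which encodes the myeloid factor PU.1, are the same anchor pair listed in both orders, with 230.0 ± 23 at 0 h and 177 ± 19 at 72 h (-0.38, adjusted p = 0.00056). At 6 h 1 loop of this list rose and 2 fell, beside 2.34% higher and 4.07% lower over all tested loops. The 2 that fell were again the SPI1 anchor pair listed in both orders (-0.31, adjusted p = 0.028 by edgeR).

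Factors that work beside ETS proteins in blood stem cells and megakaryocytes gave 17 loops at 9 of 15 genes, of which 16 were tested. At 72 h against 0 h, 2 rose and 6 fell, so that 50.0% were called, beside 33.6% of all tested loops, with a median of -0.22. The list is of short loops, with a median length of 120 kb. Of all tested loops up to 100 kb, 48.6% were called, with a median of -0.18. For those of 100 to 200 kb the values were 41.2% and -0.09, so the list's share was near that of short loops. Loop14993 and loop14998 at MYB, a factor of immature blood cells, fell by 0.84 (adjusted p = 4.2e-06) and by 0.70 (adjusted p = 9.4e-06) on the log2 scale, and loop3716 at MEIS1, a partner of HOX proteins, rose by 0.80 (adjusted p = 0.025 by edgeR). At 6 h none of these loops rose and 3 fell (18.8% called), beside 6.41% of all tested loops called. The shares called were 15.6% for all loops up to 100 kb and 8.77% for those of 100 to 200 kb.

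Megakaryocyte genes known as targets of FLI1 or other ETS factors gave only 4 loops, at 4 of 15 genes. At 72 h 1 rose and 2 fell, with a median of -0.39, beside 33.6% of all tested loops called, and 4 loops are too few to read a share from. Loop11295 at ITGA2, a collagen receptor subunit, rose from 34.7 ± 5.0 to 89.1 ± 3.6 normalized counts (1.27, adjusted p = 4.9e-14 by edgeR). Loop29727 at ITGB3, a subunit of the platelet fibrinogen receptor, fell from 169 ± 15 to 93.0 ± 11 (-0.91, adjusted p = 2.8e-12), and loop29289 at MYH10, a nonmuscle myosin heavy chain gene, had a change of -0.71 (adjusted p = 0.0025). At 6 h 1 loop of this list rose and none fell, beside 6.41% of all tested loops called.

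Outside both loci, the loops whose log2 normalized counts over the 12 libraries were most like the leading ETS loops were sought among 8480 loops with an end of a protein-coding gene in an anchor. To loop22802 these were loop21122 at C10orf120 (Pearson r = 0.956), loop7910 at BCL6 (0.949) and loop15834 at HOXA4 (0.948). To loop32230 they were loop10920 at ICE1 (0.959), loop19675 at TEX48 (0.959) and loop18563 at EXT1 (0.954). The values are descriptions over libraries that share the 3 times.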

How the data were processed

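The authors deposited raw contact counts of 33914 loops per the file headers (30 columns of technical replicates), with log2 fold changes, adjusted p-values and a class. Anchor positions, the other values, are deposited counted from 0 and printed counted from 1. The submitters' processing notes name Juicer 1.5.6, DESeq2 and the build hg38; how loops were called is not given in the sources used here.

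Columns were summed into 12 libraries and tested in R 4.3.3 by edgeR 4.0.16 (TMM, filterByExpr with minimum count 10 and minimum total 15, glmQLFit with prior count 2, quasi-likelihood test, Benjamini-Hochberg over 24132 loops) in 1 model of 3 times with no covariate. SE is the absolute change divided by the root of F. The test was tried on simulated data. The 72 h replicates 3 and 4 entered the fit as 2 libraries.

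Named were loops with part of an ETS gene in an anchor, loops past the threshold and the strongest of each locus; untested, uncalled or control loops named besides were chosen after their values were seen. Members and lists were chosen with earlier results of these data known. Alternatives were RLE and total count scaling, no filter, DESeq2 1.42.0 without independent filtering, a length offset (loess, span 0.3), a replicate block, a batch term, each batch alone, the 72 h replicates 3 and 4 summed, a threshold of 0.01 and leaving out each library.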

Additional observations from a re-analysis of the deposited data

Results flagged for a closer look

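Of 50 groups of 4 libraries examined (25 named loops at 0 h and 6 h), 5 held a library far from the others by Dixon's test, where chance flags about 1 in 20 groups, or 2.5 here. All 5 were at FLI1-ETS1, and in all 5 the library was the highest of its group. For loop22798, 6 h replicate 1 held 24.5 normalized counts, against 15.7 to 17.0 in the others. For loop22802, 0 h replicate 3 held 18.8, against 12.3 to 12.5. For loop22803, 6 h replicate 2 held 21.5, against 7.84 to 9.91. For loop22805, 6 h replicate 3 held 34.0, against 26.5 to 27.1. For loop22806, 0 h replicate 1 held 21, against 14.2 to 15.1. At 72 h, with replicates 3 and 4 counted as 1, groups were too small for this test.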

How the results depend on the processing

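The 3 calls at 6 h against 0 h depended on the settings. Their number was 0 at a threshold of 0.01 (2.26% of all loops called), 0 with DESeq2 (1.41%) and 0 with the edgeR length offset (4.07%; 3 members each at an unadjusted p under 0.05), 1 with no filter (4.54%), and 0 within replicates 1 and 2 (2.09%) or 3 and 4 (0.916%; 5 and 4 unadjusted). Leaving out 1 library at a time gave 0 to 2 (2.86% to 6.31% of all loops). At 72 h against 0 h the 23 calls became 11 within replicates 3 and 4 (17.1% of all loops) and 17 to 22 without 1 library (26.4% to 34.5%), with 16 by DESeq2 (20.6%). At 72 h against 6 h the 14 calls became 9 within replicates 3 and 4 (7.27%) and 13 to 16 without 1 library (14.9% to 20.7%). Under every alternative run, all members called in these 3 comparisons were higher at the later time. Of the 23 calls at 72 h against 0 h, 8 held under all 23 alternatives: loop22794, loop22795, loop22796, loop22798, loop22802, loop22805, loop32230 and loop32232. Over the named loops and comparisons, 1530 alternative values kept their direction and side of the threshold, 136 lost the call and 9 gained it. Another 50, in 14 loops, had the opposite sign, all with reported changes of at most 0.22 in size, and none of these was called under either setting.

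Deviations of libraries with the same replicate number had small positive correlations between times, from 0.0146 to 0.124. Pairing by replicate number was thus weak at most and is not excluded. A replicate block gave 3, 24 and 17 calls, where 8.03%, 35.5% and 22.7% of all loops were called. Without it these shares were 6.41%, 33.6% and 20.5%. Scaling moved the median of all loops by at most 0.06. Depth kept 4 of 25 FLI1-ETS1 loops (16.0%) from being tested, beside 28.8% of the whole table, and without a filter none of the 4 was called.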
